A study of Mus musculus with 18 samples.

Results

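A pair of neural stem cell (NSC) lines from the same tissue, the DNGR-1-traced spinal cord, were compared gene by gene on the autosomes. DNGR-1 is the product of Clec9a, and in both lines a Cre recombinase made from the Clec9a locus had switched on a fluorescent reporter placed at the Rosa26 locus, tdTomato in one line and EYFP in the other. The labels give the genotypes as DNGR-1 +/- Tom+/- and DNGR-1 +/- EYFP+/-, so that both lines carry 1 altered DNGR-1 allele. Each line was sequenced 3 times as adherent NSCs kept for 4 days with EGF and bFGF at 20 ng/ml each, heparin and laminin. These were 6 of the 18 libraries of the study, which also held astrocytes made from the same lines with BMP4 and a hippocampal line, which by the study's methods carried a Glast-driven Cre, a floxed Huwe1 allele and EYFP. The 3 replicates of a line were passages 10, 11 and 12 of that line. The study's methods give 6 to 14 weeks as the age of its mice where nothing else is stated. Which number is which passage, the sex of the donor mice and the number of mice behind each line are not given in the sources used here. The p-values below therefore measure the spread between passages of 1 line and not between mice, and the reporter, the donor and the culture history cannot be told apart. A gene was included when it lay on an autosome and had a deposited log2 value of at least 3.3219, which is 10 when put on a linear scale, in 3 or more of the 6 libraries. This kept 13745 of 26819 autosomal genes in a table of 27997 genes. The third highest value was 3.3228 for the gene just inside this limit (Gm20036) and 3.3218 for the gene just outside (Gm48619).

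Cells keep a record of where along the body axis they were made. In the neural tube, Hox genes are switched on in the order in which they lie in their clusters, low-numbered groups toward the head and high-numbered groups toward the tail, and cells in culture often hold that code. Position from dorsal to ventral is set by another group of transcription factors, such as Zic and Msx genes dorsally and Nkx and Foxa genes ventrally. Cultured spinal cord NSCs also divide under EGF and FGF, depend on Notch signaling to stay undifferentiated, and can shift toward astrocytes, oligodendrocytes or neurons.

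Both lines carried the markers of NSCs at high levels. Vim, an intermediate filament of radial glia, lay between 15.26 and 15.35 in all 6 libraries, and Sox9, a glial and stem cell transcription factor, between 12.07 and 12.24. Nes, the NSC filament nestin, was 14.15 to 14.39 in tdTomato and 13.75 to 14.02 in EYFP. Of the defining markers of blood-derived cells, Ptprc, Aif1 and Itgam were below 0 in all 6 libraries and Csf1r and Flt3 did not exceed 1.13. Replicates of a line differed by a median of 0.0702 to 0.113 per gene, and libraries of different lines by 0.126 to 0.211. Genes of the sex chromosomes were left out of all counts because the lines differed in them: Xist was 13.09 to 13.22 in tdTomato and 5.37 to 5.47 in EYFP, and Y-linked Kdm5d was 4.95 to 5.03 against 10.24 to 10.31. Sex-linked expression therefore differed with the line, and its part in the autosomal differences was not tested.

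A large share of the autosomal genes differed between the lines, nearly always by little. In all, 4557 of the 13745 genes passed the test at an adjusted p of 0.05, which is 33.2% (limma, Benjamini-Hochberg adjustment over all genes tested). Of the 13745, 2457 (17.9%) were higher in tdTomato and 2100 (15.3%) were lower. The median difference, tdTomato minus EYFP, was 0.01 on the log2 scale, the median size of a difference was 0.15, and 97.0% of genes differed by less than 1. A difference of at least 1 was called for 401 genes, 364 of them protein-coding. As shares of the 13745 genes tested, 226 (1.64%) were higher in tdTomato by at least 1 and 175 (1.27%) were lower. The count of 4557 rested on the full set of libraries: it was 2671 without tdTomato replicate 2, 2735 without tdTomato replicate 3 and 2714 without EYFP replicate 1, while the count of 401 ranged from 365 to 471 when any 1 library was left out. In these bulk cultures, fewer cells that express a gene and less RNA per cell cannot be told apart.

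**Figure D1:**
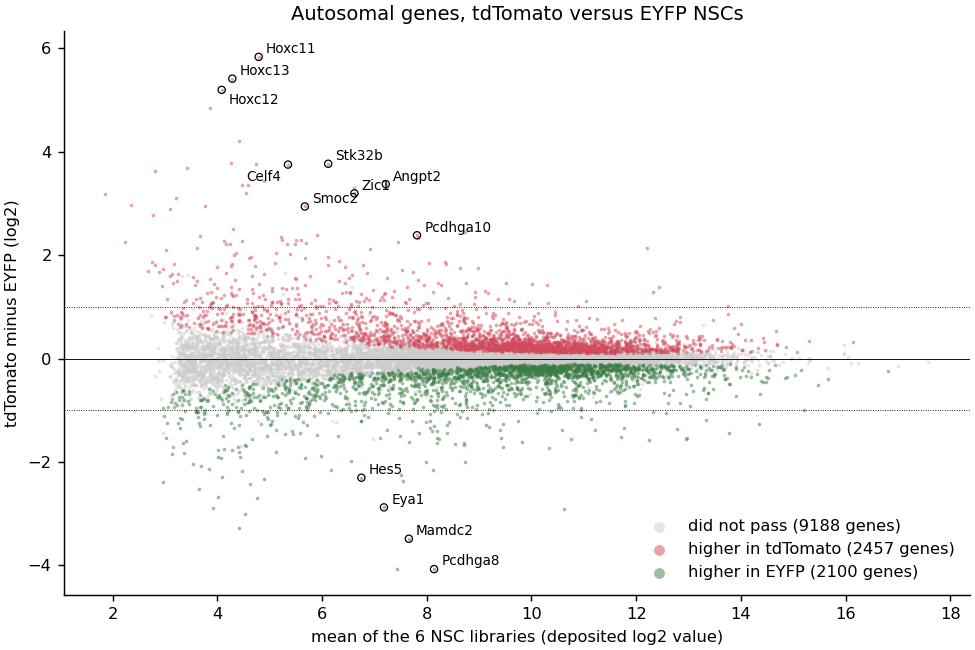
Each point is 1 of the 13745 autosomal genes, placed by its mean log2 value over the 6 NSC libraries (x axis) and its difference, tdTomato minus EYFP, on the log2 scale (y axis). Red points were higher in tdTomato (2457 genes), green points higher in EYFP (2100 genes), gray points did not pass, dotted lines mark a difference of 1, and Hoxc11, Hoxc13 and Hoxc12 lie highest among the circled genes.

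The genes that were higher in tdTomato by the widest margin were 3 neighbors at the posterior end of the HoxC cluster. Hoxc11 (chr15:102954427-102957708, GRCm38) was 7.76, 7.74 and 7.62 in tdTomato replicates 1, 2 and 3 and 1.77, 2.04 and 1.80 in the EYFP replicates. The EYFP values lay around the mean of the hippocampal NSCs, 1.83. The hippocampal line was not free of Hox RNA, with means of 9.25 for Hoxa5, 8.08 for Hoxa7 and 4.53 for Hoxa10. The difference in Hoxc11 was 5.84 ± 0.15 (SE; n = 3 per line; adjusted p = 1.55e-07). Hoxc13 differed by 5.42 ± 0.17 (adjusted p = 6.92e-07), from a mean of 6.99 to a mean of 1.58, and Hoxc12 by 5.20 ± 0.18 (adjusted p = 1.06e-06), from 6.68 to 1.48. If the deposited values are a regularized log, as they look, weak genes are drawn toward their mean and the sizes of these differences may be understated, which was not tested.

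The leading genes, here and in the figure captions, are the protein-coding genes with the largest differences among those whose mean in the higher line was at least 100 on the linear scale. After the HoxC genes came Stk32b and Celf4. Stk32b, a serine/threonine kinase, was 7.92, 7.91 and 8.18 in tdTomato and 4.46, 4.34 and 3.90 in EYFP, a difference of 3.77 ± 0.16 (adjusted p = 5e-06). Celf4, an RNA-binding protein best known from neurons, was 6.97, 7.43 and 7.28 against 3.32, 3.18 and 3.92 (3.75 ± 0.22, adjusted p = 2.43e-05). Angpt2, a secreted ligand of the TIE2 receptor, was 8.58, 9.12 and 9.01 against 5.54, 5.26 and 5.79 (3.37 ± 0.17, adjusted p = 1.17e-05). For all 3 genes, every tdTomato library lay above every EYFP library by more than 2 on the log2 scale. Cdh23, an atypical cadherin of the hair cell tip link, differed by 3.31, and Zic1, a zinc finger factor of the dorsal neural tube, by 3.20. The other leading genes were Smoc2, a secreted calcium-binding matrix protein, with a difference of 2.94, Clic5, a chloride intracellular channel protein, with 2.45, Klhl29, a Kelch-like protein, with 2.39, and the gamma-protocadherin Pcdhga10, with 2.39. Angpt2 lies within Mcph1 on the other strand and Zic1 overlaps Zic4 on the other strand, and whether the counting used strand is not given in the sources used here.

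Among the genes that were lower in tdTomato, protocadherins led. The gamma-protocadherin Pcdhga8 (chr18:37725706-37841873) was 6.04, 5.97 and 6.30 in tdTomato and 10.07, 10.41 and 10.05 in EYFP, a difference of -4.07 ± 0.12 (adjusted p = 4.53e-07). Mamdc2, a secreted proteoglycan with MAM domains, was 6.26, 5.97 and 5.51 against 9.44, 9.55 and 9.22 (-3.49 ± 0.18, adjusted p = 1.17e-05). In this gene tdTomato replicate 1 lay nearest to EYFP and EYFP replicate 3 nearest to tdTomato. That order was common: among the 175 genes lower by at least 1, tdTomato replicate 1 was the tdTomato library nearest to EYFP in 121, and EYFP replicate 3 was the EYFP library nearest to tdTomato in 115. Among the 226 genes higher by at least 1, tdTomato replicate 1 was nearest in 138. There EYFP replicate 3 was nearest in 92, beside 70 for EYFP replicate 1 and 64 for EYFP replicate 2. Eya1, a transcriptional coactivator and phosphatase, was lower by 2.88 on the log2 scale (5.89, 5.77 and 5.57 against 8.46, 8.66 and 8.75). Pcdh15, the partner of Cdh23 in the hair cell tip link, differed by -2.36, so that the 2 genes of this pair moved in opposite directions. Hes5, a direct effector of Notch, differed by -2.31, Pla2g7, a secreted phospholipase, by -2.25, Ddx19b, an RNA helicase of mRNA export, by -2.15, Lama4, the laminin alpha 4 chain, by -2.0, and Ackr3, a scavenger receptor for the chemokine CXCL12, by -2.0. Pcdhgb5 and Pcdhga5, 2 further gamma-protocadherins, differed by -4.07 and -2.16. The 23 leading genes given here kept their direction and passed the test in each of the 436 values that the alternatives gave for them. Hoxc12 could not be tested under a filter of 100 on the linear scale. The genes were chosen for large passing differences in these same libraries, so that this outcome was largely set by the choice.

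**Figure D2:**
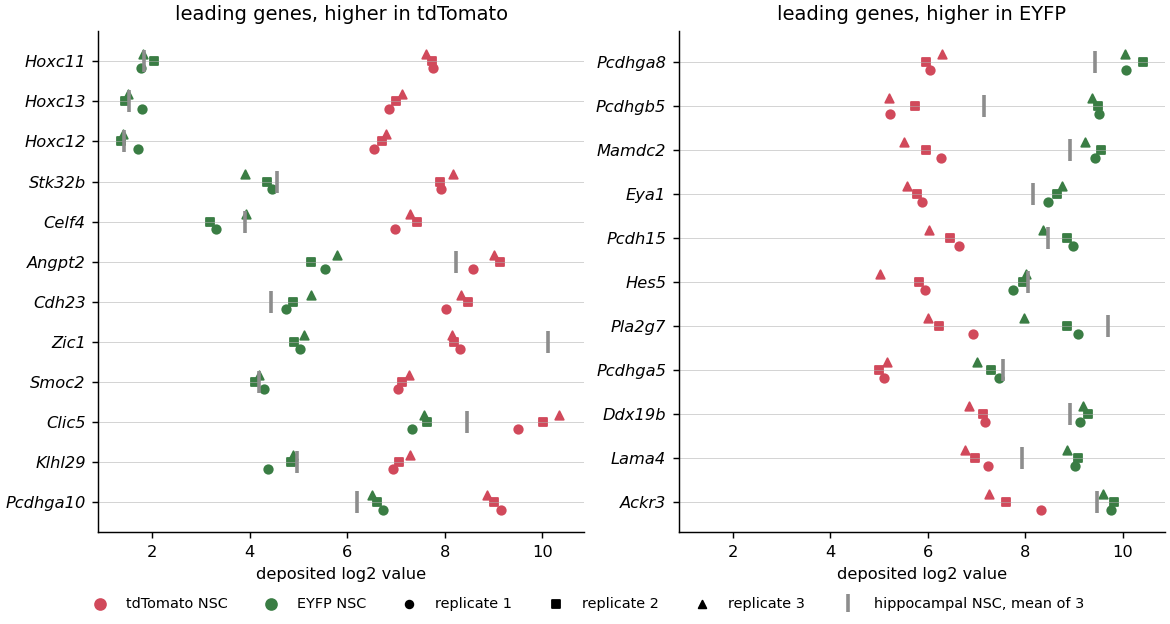
Deposited log2 values (x axis) of the leading genes of each direction (rows, 12 higher and 11 lower) in the 3 tdTomato (red) and 3 EYFP (green) NSC libraries, with a marker shape for each replicate and a gray bar for the mean of the 3 hippocampal NSC libraries. The 2 lines do not overlap in any of these genes, which the choice of genes required, and the hippocampal mean of Hoxc11, 1.83, lies among the EYFP values.

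The Hox code of the lines differed by less than 1 in every gene tested up to group 9 and by far more in groups 11 to 13. In groups 10 to 13, 7 of 7 genes tested were higher in tdTomato and 5 of them by at least 1. These 5 (Hoxc11, Hoxc12, Hoxc13, Hoxb13 and Hoxa11) reached the limit for testing in the tdTomato libraries alone, so that they could only come out higher there, and the count is a description with nothing read from it against the share over all genes. Hoxc10 and Hoxa10 reached the limit in all 6 libraries. All 7 were called whichever library was left out, and 4 could be tested and were called under a filter of 100 on the linear scale. Besides the 3 HoxC genes these were Hoxb13 (3.37, 3.39 and 3.61 against 0.13, 0.12 and 0.57), Hoxa11 (4.18, 4.19 and 4.14 against 1.95, 0.90 and 1.30), Hoxc10 (9.82, 10.09 and 10.05 against 9.12, 9.09 and 9.12) and Hoxa10 (9.46, 9.35 and 9.37 against 9.01, 8.95 and 9.09). Hoxb13 and Hoxa11 differed by 3.18 ± 0.27 and 2.78 ± 0.29, and Hoxc10 and Hoxa10, which both lines expressed strongly, by 0.88 ± 0.07 and 0.38 ± 0.06 (adjusted p = 0.000148, 0.000375, 0.000108 and 0.00186, limma). Hoxd13, Hoxa13 and Hoxd10 were below the limit for testing and had means of 3.31, 2.66 and 2.55 in tdTomato and 0.17, 0.90 and 0.96 in EYFP. The break in the HoxC cluster was sharp: Hoxc9 and Hoxc8 were close in both lines (means of 8.08 and 8.12 for Hoxc9, 7.53 and 8.04 for Hoxc8), Hoxc10 was high in both, and Hoxc11, Hoxc12 and Hoxc13 were high in tdTomato and at the hippocampal level in EYFP.

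In groups 6 to 9, 2 of 12 genes (16.7%) were higher in tdTomato, near the 17.9% over all genes, and 3 (25%) were lower, beside 15.3%, and none differed by 1. Hoxb9 was 8.95, 9.11 and 9.13 against 8.27, 8.56 and 8.14 (0.74 ± 0.11, adjusted p = 0.00156) and Hoxc6 was higher by 0.46. Hoxa7, Hoxc8 and Hoxa9 were lower, with differences of -0.60, -0.52 and -0.41. The other 7 members did not pass: Hoxb6 differed by 0.43, Hoxb7 by 0.20, Hoxd9 by -0.01, Hoxc9 by -0.03, Hoxd8 by -0.11, Hoxb8 by -0.12 and Hoxa6 by -0.16. In groups 1 to 5, 4 of 13 genes were lower in tdTomato and none was higher. They included Hoxa3 (-0.32), Hoxa2 (-0.31) and Hoxa5 (-0.27), and this count fell to 1 without tdTomato replicate 3 or EYFP replicate 1 and to 2 without tdTomato replicate 2 or EYFP replicate 3. Among members that did not pass, the differences were -0.24 for Hoxb3, -0.10 for Hoxb2, 0.03 for Hoxb4, 0.23 for Hoxc4 and 0.33 for Hoxb5. Hoxd1 was near -2.1 in all libraries and was not tested. Among Hox cofactors and caudal factors, 5 of 12 were lower and 1 was higher, the Hox partners Meis1 (-0.65) and Meis2 (-0.47), the mesoderm factor T (-1.12, above the limit in EYFP alone) and the zinc finger factor Tshz1 (-0.22) being among the lower and Gdf11, a secreted factor that promotes posterior Hox expression, higher (0.27, a call lost without tdTomato replicate 2 or 3). Of 10 forebrain and midbrain factors tested, 2 were higher and 3 lower, none by 1, and the 2 became 1 without tdTomato replicate 2 or 3 or EYFP replicate 1 or 3. These were Eomes (0.81) and Six3 (0.69), and En1 (-0.40), Emx2 (-0.38) and Lhx2 (-0.25).

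**Figure D3:**
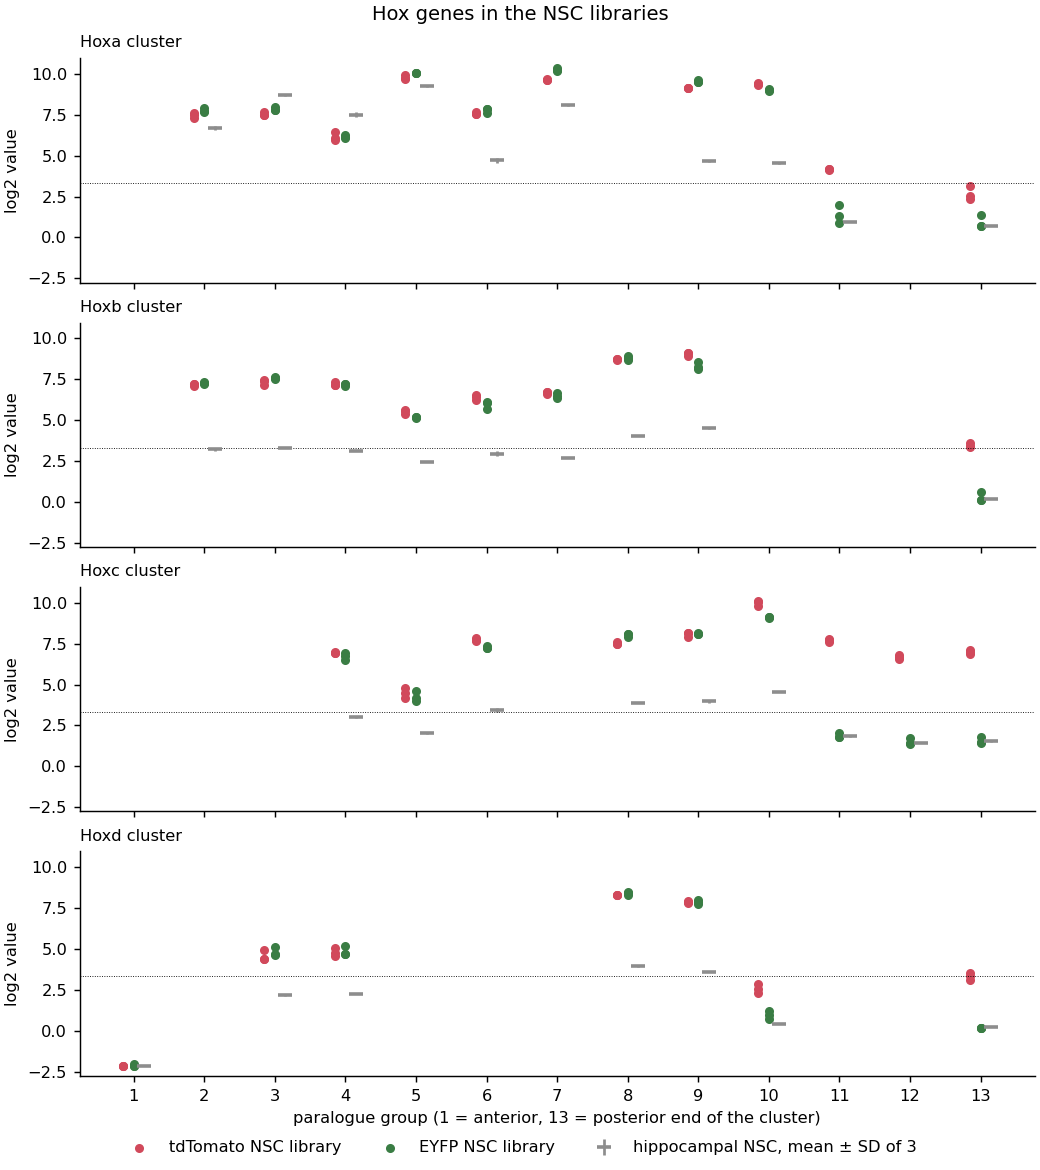
Log2 values (y axis) of the Hox genes of each cluster (panels) by paralogue group (x axis), with 1 red point per tdTomato and 1 green point per EYFP NSC library and gray bars for the mean ± SD of the 3 hippocampal NSC libraries. The dotted line is the limit of 3.32, and the lines separate at groups 11 to 13, where tdTomato values of HoxC genes lie near 7 and EYFP values near the hippocampal ones.

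Dorsal and ventral patterning factors were higher in tdTomato in part. Of 7 dorsal factors, 4 were higher and none was lower, where 17.9% of all genes were higher. Zic1 was 8.31, 8.18 and 8.15 in tdTomato and 5.03, 4.91 and 5.12 in EYFP (3.20 ± 0.10, adjusted p = 6.92e-07), below the hippocampal mean of 10.12 in both lines. Its neighbor Zic4 was 3.34, 3.59 and 4.24 against 1.95, 2.20 and 1.98 (1.68 ± 0.28, adjusted p = 0.00301) and reached the limit in tdTomato alone, and the dorsal factors Lmx1b and Msx1 differed by 0.57 and 0.32. The count of 4 includes Zic4, which could only come out higher, and was 2 without tdTomato replicate 2 or EYFP replicate 1. The other dorsal factors tested, Zic2 (0.05), Zic5 (-0.003) and Rspo3 (-0.60), did not pass. Among 11 intermediate and ventral factors, 5 were higher and 3 were lower. Foxa1 (2.21 ± 0.19), Foxa2 (1.13 ± 0.23) and Nkx2-2 (1.00 ± 0.10), factors of the floor plate and of the domain beside it, were higher (adjusted p = 0.00014, 0.00734 and 0.000337), Foxa2 being above the limit in tdTomato alone. Dbx2 (-0.73), Irx3 (-0.43) and Pax6 (-0.41), which mark intermediate progenitors, were lower. The Nkx2-2 values were 7.79, 7.88 and 7.86 against 6.91, 6.99 and 6.64, with no overlap.

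Genes of DNA replication were higher in tdTomato, each by a small amount. Of 42 autosomal S phase genes, 31 were higher and none was lower, beside a background of 17.9%, with a median difference of 0.35 and no gene above 1. Ung, a uracil-DNA glycosylase, was 8.67, 8.87 and 8.85 against 7.96, 7.80 and 8.20 (0.81 ± 0.11, adjusted p = 0.00103). Uhrf1, which maintains DNA methylation, was 11.84, 11.91 and 12.00 against 11.20, 10.98 and 11.55 (0.67 ± 0.12, adjusted p = 0.00498). Cyclin E2 (Ccne2), the chromatin assembly factor Chaf1b and the nuclease Exo1 differed by 0.69, 0.69 and 0.67. In each of these 5 genes EYFP replicate 3 was the EYFP library nearest to tdTomato. The count was 17 without EYFP replicate 1, 20 without tdTomato replicate 3 and 39 without EYFP replicate 3, with none lower in any of these, and 13 when no genes were filtered. Genes of G2 and M phase gave these counts: 8 of 54 (14.8%) were higher and 4 (7.41%) lower, beside 17.9% and 15.3%, the median difference was 0.09, and the count of higher genes ran from 2 without tdTomato replicate 2 to 23 without EYFP replicate 3. The count of lower genes was 1 without tdTomato replicate 2 and 2 without EYFP replicate 1 or 3. Among the higher genes were Lbr, a lamin receptor (0.52), Gtse1 (0.45) and Cdc20, an activator of the anaphase-promoting complex (0.28).

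Regulators of the cell cycle were mixed. Of 18 cyclins, CDKs, E2F and Myc genes, 7 (38.9%) were higher and 3 (16.7%) lower, beside 17.9% and 15.3% over all genes. Cdk6, a kinase of G1, was 8.37, 8.52 and 8.45 against 7.42, 7.56 and 7.26 (1.03 ± 0.09, adjusted p = 0.000155), and its partner cyclin D1 (Ccnd1) was 14.01, 14.21 and 14.32 against 13.35, 13.08 and 13.52 (0.87 ± 0.11, adjusted p = 0.00102). E2f1, which drives S phase genes, differed by 0.69 and Mycl by -0.67. This list's count of higher genes was 4 without tdTomato replicate 3 and 11 without EYFP replicate 3. In the list of CDK inhibitors and p53 targets, 12 of 23 (52.2%) were higher and 3 (13%) lower, beside the same shares over all genes. The higher genes included the death receptor Tnfrsf10b (7.91, 8.06 and 7.82 against 6.66, 6.56 and 7.0; a difference of 1.19 ± 0.13, adjusted p = 0.00038), the CDK inhibitors Cdkn1c (0.79) and Cdkn1a (0.59), and the p53 targets Phlda3 (0.50) and Zmat3 (0.49). The lower genes were Btg2, an antiproliferative immediate-early gene (-0.81), and the CDK inhibitors Cdkn2a (-0.43) and Cdkn1b (-0.19). Of the 7 CDK inhibitors tested, 2 were thus higher and 2 lower, and Cdkn2b, Cdkn2c and Cdkn2d did not pass (-0.03, 0.03 and 0.18).

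Genes of astrocytes and of the gliogenic program were lower in tdTomato. Of 27 tested, 18 were lower and 3 higher, beside a background of 15.3% lower, and the median difference was -0.33. Aqp4, the water channel of astrocytes, was 8.38, 7.60 and 7.65 against 9.87, 9.45 and 9.31 (-1.67 ± 0.22, adjusted p = 0.000946). Ndrg2, a glial protein, differed by -1.56, Apoe, the lipid carrier made by astrocytes, by -1.37, and the FGF receptor Fgfr3 by -0.93. Against this trend Sparcl1, a secreted matricellular protein of astrocytes, was 13.07, 13.42 and 13.33 against 11.05, 11.24 and 11.14 (2.13 ± 0.09, adjusted p = 3.66e-06). S100b was also higher (0.40), Gfap was 9.10, 9.12 and 8.96 against 9.36, 9.44 and 9.11 and did not pass (-0.24, adjusted p = 0.0631, limma), and Gjb6 was near 0 in both lines. For Aqp4, tdTomato replicate 1 lay closest to EYFP, which it also did in S phase genes such as Uhrf1 and Ccne2.

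Stem cell and radial glia genes were lower in tdTomato in 12 of 24 cases (50%) and higher in 3 (12.5%), beside 15.3% and 17.9% over all genes, with a median difference of -0.23. Apart from Hes5 the named differences were small: the RNA-binding protein Msi1 differed by -0.61, Sox2 by -0.58 (11.40, 11.25 and 11.22 against 11.90, 11.94 and 11.78), the phosphatase receptor Ptprz1 by -0.51 and Notch1 by -0.49. Nes was higher (0.36, adjusted p = 0.0113, limma), and of the 3 higher genes 1 was called without tdTomato replicate 2 or 3 or EYFP replicate 1. Of 8 fetal growth and RNA-binding factors tested, 3 were higher and 1 lower. Trim71, a target of let-7 microRNA in early embryos, was 6.28, 6.79 and 6.89 against 4.24, 4.70 and 4.15 (2.29 ± 0.21, adjusted p = 0.000187), and Igf2bp3, a fetal mRNA-binding protein, was 7.40, 7.41 and 7.30 against 5.24, 5.93 and 6.11 (1.61 ± 0.20, adjusted p = 0.000864). Hmga1 and Hmga2, chromatin proteins of fetal stem cells, differed in opposite directions (0.79 and -0.45). The hippocampal means of Trim71, Igf2bp3 and Hmga1, 2.45, 4.26 and 6.94, were below those of both lines.

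In the lists of 3 other lineages more genes were lower than higher in tdTomato, beside 15.3% lower and 17.9% higher over all genes. Of 18 motile cilium and ependymal genes, 6 (33.3%) were lower and 1 (5.56%) was higher, led by Foxj1, the master factor of motile cilia (9.76, 9.45 and 9.41 against 10.31, 10.26 and 10.25; -0.73 ± 0.09, adjusted p = 0.000616) and by Mlf1 in the other direction (0.74), whose side had no call without tdTomato replicate 2 or 3 or EYFP replicate 1. That count of 6 was 3 without tdTomato replicate 2 or 3 or EYFP replicate 1, and the ependymal markers Ccdc153, Fam183b and Dnah12 were below the limit in all 6 libraries. In the oligodendrocyte lineage 5 of 13 genes (38.5%) were lower and 2 (15.4%) higher. Gpr17, a receptor of committed precursors, was lower (-1.53, above the limit in EYFP alone), as were Cnp (-0.63) and Pdgfra (-0.59), while Ugt8a, an enzyme of myelin lipids, was higher (1.35), and Olig1 and Olig2 differed by -0.09 and -0.05 and did not pass. Of 16 neuronal genes, 4 (25%) were lower, among them Tubb3 (-0.71) and Sox4 (-0.60), and 2 were higher, Insm1 (0.81) and Gap43 (0.35), but 4 were lower and 4 higher without EYFP replicate 3.

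**Figure D4:**
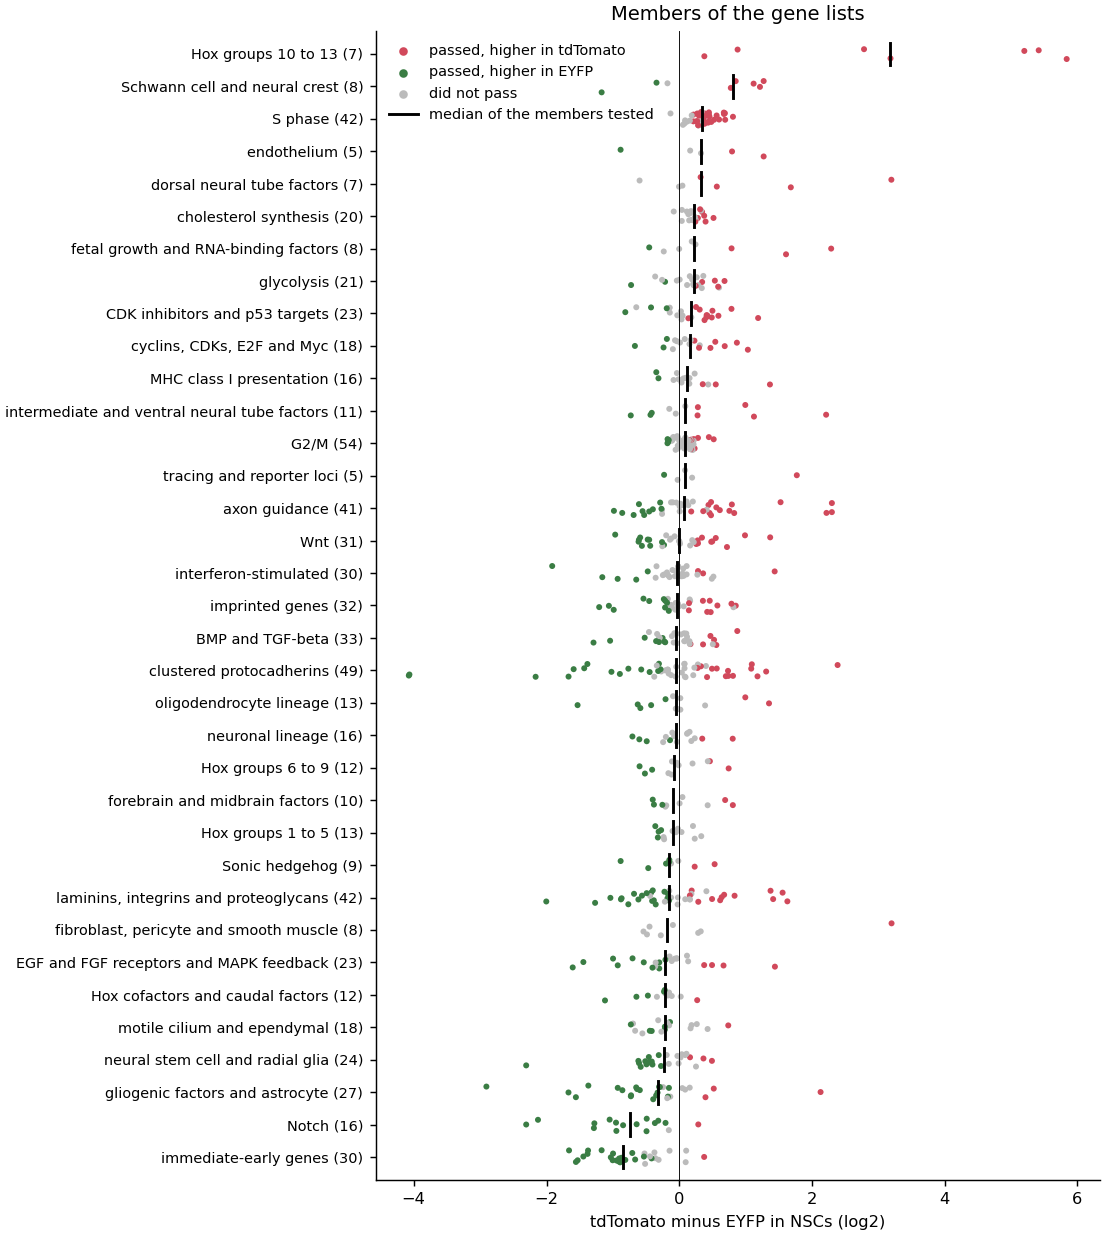
Difference between the lines, tdTomato minus EYFP, on the log2 scale (x axis) for each member of the gene lists with at least 5 members tested (rows, with the number tested), in red where higher and green where lower in tdTomato, gray where it did not pass, with a black bar at the median. Immediate-early genes and Notch genes have the lowest medians (-0.84 and -0.74), and the top row, Hox groups 10 to 13, holds 5 genes that reached the limit for testing in tdTomato alone.

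Receptors, ligands and targets of the Notch pathway were lower in tdTomato. Notch receptors on one cell bind Delta or Jagged ligands on the next, the released intracellular domain joins RBPJ on DNA, and Hes, Hey and Nrarp genes are its direct targets. Of 16 members tested, 14 were lower and 1 was higher, beside a background of 15.3% lower, with a median difference of -0.74, and 12 or 13 were lower when any 1 library was left out. Receptors were Notch1 (13.58, 13.55 and 13.45 against 14.06, 14.07 and 13.93; -0.49), Notch2 (-0.37) and Notch3 (-0.85). Ligands were Dll1 (10.45, 10.34 and 10.15 against 11.35, 11.35 and 11.09; -0.95), Dll3 (-0.49) and Dll4 (-1.29), whereas Jag1 was higher by 0.29 (adjusted p = 0.00183, limma). The Fringe enzymes, which modify the receptors, were Mfng (-2.13, above the limit in EYFP alone), Rfng (-0.32) and Lfng (-0.21).

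Among the targets of Notch, Hes5 had the widest gap. Hes5 (chr4:154960923-154962371) was 5.95, 5.83 and 5.02 in tdTomato and 7.76, 7.95 and 8.01 in EYFP, with a hippocampal mean of 8.05, so that the EYFP line lay near the hippocampal line (difference between the lines -2.31 ± 0.23, adjusted p = 0.000265). Nrarp was 7.80, 7.82 and 7.64 against 9.04, 8.92 and 9.14 (-1.28 ± 0.08, adjusted p = 3.44e-05), and Hey1 was 8.75, 8.65 and 8.55 against 9.72, 9.71 and 9.67 (-1.05 ± 0.06, adjusted p = 2.43e-05). Hey2 differed by -0.95, and Hes1, which many pathways control, by -0.16 and did not pass (adjusted p = 0.449, limma). The promoters of Hes5 and Hey2 are given here as RefSeq places them (GRCm38.p6, 250 bases before to 50 after the start, in the direction of the gene) because both hold the core letters that RBPJ binds, TGGGAA, once on each strand, in capitals. TTCCCA is the same motif read from the other strand. Hes5 is at chr4:154960673-154960972 on the plus strand and Hey2 at chr10:30842734-30843033 on the minus strand.
Hes5: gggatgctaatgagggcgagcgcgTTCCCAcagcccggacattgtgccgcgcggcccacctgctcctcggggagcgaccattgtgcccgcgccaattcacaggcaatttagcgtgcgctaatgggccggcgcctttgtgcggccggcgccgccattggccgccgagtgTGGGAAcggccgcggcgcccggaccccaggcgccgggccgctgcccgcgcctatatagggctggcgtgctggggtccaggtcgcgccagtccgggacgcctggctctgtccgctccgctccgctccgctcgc
Hey2: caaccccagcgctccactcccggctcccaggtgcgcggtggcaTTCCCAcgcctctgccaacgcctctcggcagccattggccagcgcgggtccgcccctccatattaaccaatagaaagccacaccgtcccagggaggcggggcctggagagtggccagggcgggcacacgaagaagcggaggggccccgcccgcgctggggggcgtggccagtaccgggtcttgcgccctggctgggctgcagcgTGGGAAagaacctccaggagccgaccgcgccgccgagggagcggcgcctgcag
Over all 31396 autosomal promoters in the table, 25.3% held the motif at least once, and of the 25748 genes they belong to, 28.1% had it in at least 1 promoter. Of the 14 genes of the pathway that were lower, 12 had a promoter in the table and 3 of these held it (Hes5, Hey2 and Lfng).

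Genes of growth factor receptors and of MAPK feedback differed in part, in lines that received the same EGF and bFGF. Of 23 receptors and MAPK feedback genes, 10 (43.5%) were lower in tdTomato and 4 (17.4%) higher, beside 15.3% and 17.9% over all genes. Erbb4, a neuregulin receptor, was 9.49, 8.83 and 8.74 against 10.85, 10.76 and 10.27 (-1.61 ± 0.21, adjusted p = 0.000968), and Egfr itself differed by -0.40 (13.65, 13.45 and 13.38 against 13.97, 13.95 and 13.78). Dusp4, a phosphatase induced by MAPK, was 10.55, 10.79 and 10.86 against 9.34, 9.15 and 9.40 (1.44 ± 0.09, adjusted p = 3.97e-05), while Spry2, a feedback inhibitor, differed by -0.70. The 4 higher genes became 2 without tdTomato replicate 2 or 3.

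Most immediate-early genes, which are transcribed within minutes of a stimulus, were lower in tdTomato. This list was drawn up after the values had been seen. Of 30 members, 20 were lower in tdTomato and 1 was higher, with 9 of the 20 past a difference of -1, beside backgrounds of 15.3% and 1.27%; the median difference was -0.84. Fos was 13.21, 13.14 and 12.78 against 14.60, 14.58 and 14.29 (-1.44 ± 0.12, adjusted p = 0.000127). Egr1 was 14.79, 14.74 and 14.61 against 15.78, 15.76 and 15.58 (-1.0 ± 0.07, adjusted p = 5.63e-05), and Nr4a1 was 12.35, 12.29 and 11.89 against 13.98, 13.89 and 13.34 (-1.56 ± 0.17, adjusted p = 0.000467). In all 3 genes replicate 3 was the lowest library of each line, and the lines did not overlap. Egr4 (-1.66), Fosb (-1.53), Egr3 (-1.38), Nr4a3 (-1.37) and Egr2 (-1.17) followed, Ier3 was higher (0.38, a call lost without tdTomato replicate 2 or 3), and Fosl1 and Klf10 did not pass (-0.15 and 0.10). The number that were lower was 15 to 26 when any 1 library was left out and 13 when no genes were filtered. The hippocampal means, 14.16 for Fos and 15.28 for Egr1, lay between the lines. In the astrocyte libraries of the same lines, 2 of 30 were higher in tdTomato and none was lower, beside 5.46% and 5.5% over all genes there. A known control element of such genes is the CArG box, the site of serum response factor. It was found on at least 1 strand in the promoters of Srf, which encodes that factor (-0.42, adjusted p = 0.0393, limma), of Zfp36, which encodes an mRNA decay factor (-1.0 ± 0.05, adjusted p = 1.6e-05), and of Egr2. The first 2 are given with the box in capitals, Srf at chr17:46556113-46556412 and Zfp36 at chr7:28379179-28379478, both on the minus strand.
Srf: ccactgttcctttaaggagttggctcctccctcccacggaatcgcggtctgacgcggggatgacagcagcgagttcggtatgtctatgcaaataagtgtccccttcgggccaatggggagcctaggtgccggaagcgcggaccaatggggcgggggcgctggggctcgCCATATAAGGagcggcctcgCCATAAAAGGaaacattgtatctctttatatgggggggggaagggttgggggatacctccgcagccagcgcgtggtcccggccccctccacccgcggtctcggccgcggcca
Zfp36: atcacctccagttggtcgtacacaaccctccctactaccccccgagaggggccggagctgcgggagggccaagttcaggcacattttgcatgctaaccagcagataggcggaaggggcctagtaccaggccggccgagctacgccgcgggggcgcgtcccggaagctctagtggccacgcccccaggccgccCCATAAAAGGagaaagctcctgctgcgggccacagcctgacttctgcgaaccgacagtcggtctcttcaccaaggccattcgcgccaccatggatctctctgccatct
These were 3 of the 17 lower genes with a promoter in the table, where a gene counts if any of its promoters holds the box. The box was in 1.57% of all autosomal promoters, and 1.74% of the genes had it in at least 1.

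Other signaling pathways had genes on both sides. Over all genes 17.9% were higher and 15.3% lower. In the Wnt list 10 of 31 genes (32.3%) were higher and as many lower. Lef1, a nuclear effector, was 5.89, 6.08 and 6.35 against 4.72, 4.82 and 4.67 (1.37 ± 0.15, adjusted p = 0.00041), the ligand Wnt7b differed by -0.96 and the inhibitor Nkd2 by 0.99. In the Sonic hedgehog list 2 of 9 genes (22.2%) were higher and 5 (55.6%) lower. Gli2, an activator of the pathway, differed by -0.88 and its receptor and target Ptch1 by -0.47, while the coreceptors Gas1 and Cdon differed by 0.53 and 0.23. The 5 lower genes became 2 without EYFP replicate 1 and 3 without tdTomato replicate 2 or 3, and the 2 higher became 1 without either of these tdTomato replicates or EYFP replicate 1 or 2. Of 33 BMP and TGF-beta genes, 6 (18.2%) were higher, near the share over all genes, and 8 (24.2%) lower. The receptor Bmpr1b differed by -1.29 (8.90, 8.39 and 8.19 against 9.89, 9.94 and 9.53) and Tgfbr3 by 0.87, and the ligand Bmp7 by 0.52. Without tdTomato replicate 2 the 10 higher Wnt genes became 6, and the 8 lower BMP and TGF-beta genes became 5 without tdTomato replicate 3, EYFP replicate 1 or EYFP replicate 2.

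Adhesion molecules set the lines apart gene by gene. Of 42 laminins, integrins and proteoglycans, 12 (28.6%) were higher and 19 (45.2%) lower, beside 17.9% and 15.3% over all genes, and 1 of the 12, Acan, was above the limit in tdTomato alone. Lama4 was 7.23, 6.96 and 6.78 against 9.02, 9.09 and 8.86 (-2.0 ± 0.12, adjusted p = 2.66e-05). The proteoglycans of one family moved in opposite directions: versican (Vcan) was 13.07, 13.12 and 13.17 against 11.77, 11.75 and 11.73 (1.38 ± 0.04, adjusted p = 2.54e-07), and neurocan (Ncan) was 13.71, 13.72 and 13.68 against 15.10, 14.95 and 14.87 (-1.27 ± 0.06, adjusted p = 7.11e-06). For Vcan the hippocampal mean of 10.12 lay below both lines and for Ncan the mean of 15.29 lay above both. Lamb3 (1.63) and the integrins Itga8 (1.56) and Itga9 (1.41) were higher. The list's count of higher genes was 7 without tdTomato replicate 2 and 8 without EYFP replicate 1.

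Of 41 axon guidance genes, 15 (36.6%) were higher and 10 (24.4%) lower, beside the same shares over all genes, 17.9% and 15.3%. The ephrin Efna5 was 6.45, 6.83 and 6.97 against 4.63, 4.22 and 4.51 (2.30 ± 0.17, adjusted p = 8.34e-05), its receptors Epha3 and Epha7 differed by 2.30 and 1.53, and Sema3f by 2.22. Nrp2, a semaphorin receptor, was 7.28, 7.23 and 7.23 against 8.22, 8.26 and 8.21 (-0.98 ± 0.07, adjusted p = 4.81e-05), so that the ligand Sema3f and its receptor were on opposite sides. Ephrins, ephrin receptors and semaphorins together made up 4 of the 4 genes of this list that were higher by at least 1.

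The clustered protocadherins, a list added after the values had been seen, are cell surface proteins whose genes lie in arrays, with different members read in different neurons. Of 49 tested, 14 (28.6%) were higher and 15 (30.6%) lower, beside 17.9% and 15.3% over all genes, and 5 and 8 of them were past a difference of 1, beside 1.64% and 1.27%. Among the lower genes, Pcdha9 was above the limit in EYFP alone. Pcdhga10 was 9.15, 9.0 and 8.87 in tdTomato and 6.74, 6.62 and 6.50 in EYFP, the reverse of Pcdhga8. Pcdhgb5 was 5.24, 5.73 and 5.21 against 9.52, 9.48 and 9.38, with a hippocampal mean of 7.15. In Pcdhga8, Pcdhgb5, Pcdhga5 and Pcdhga10, 46.1%, 32.9%, 44.7% and 43.9% of stretches of 75 bases also occur in other genes, and reads from these were split by the authors' estimation, so that the size of each difference is uncertain. Ddx19b shares 10.2% of its stretches, and the other 18 leading genes share none.

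In metabolism, 7 of 20 genes of cholesterol synthesis were higher in tdTomato (35%, beside 17.9% over all genes) and none was lower, with a median of 0.22. Fdps differed by 0.52 and Cyp51 by 0.40. This count depended on single libraries: it was 15 without tdTomato replicate 1, which lay nearest to EYFP in Fdps (12.29 against 12.61 and 12.81 in the other tdTomato libraries), 1 without tdTomato replicate 2 or 3, and 2 without EYFP replicate 1 or 2. In astrocytes of the same lines 15 of the 20 were lower and none was higher, where over all genes 5.5% were lower and 5.46% higher. Of 21 glycolysis genes, 5 (23.8%) were higher and 2 (9.52%) lower, beside 17.9% and 15.3%. The lactate dehydrogenase Ldha differed by 0.59, the enolase Eno1 by 0.54 and the glial aldolase Aldoc by -0.73. The 5 became 8 without EYFP replicate 3 or tdTomato replicate 3, and the 2 became 1 without tdTomato replicate 2 or 3 or EYFP replicate 1 or 2.

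Of 30 interferon-stimulated genes tested, 3 (10%) were higher and 5 (16.7%) lower, beside 17.9% and 15.3%, led by Ifi35 (2.99, 3.14 and 3.01 against 4.75, 5.00 and 5.14; -1.91, above the limit in EYFP alone) and Trim25, a ubiquitin ligase of antiviral signaling (1.44), and of 16 genes of MHC class I presentation 3 (18.8%) were higher and 2 (12.5%) lower, led by H2-Q7 (1.37). Among imprinted genes, which are read from 1 parental allele, 9 of 32 (28.1%) were higher and 10 (31.2%) lower. Ndn (7.68, 7.39 and 7.30 against 8.59, 8.62 and 8.77; -1.21) and Nnat (9.61, 9.60 and 9.5 against 10.67, 10.64 and 10.57; -1.06) were lower, and the growth inhibitors Grb10 (0.85) and Cdkn1c (0.79) were higher. These counts were 5 higher and 5 lower without tdTomato replicate 2, and the higher count was 5 without tdTomato replicate 3.

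Some markers of other cell types were higher in tdTomato. Tmem119, used as a marker of microglia, was 6.26, 6.33 and 5.85 against 2.40, 1.94 and 2.76 (3.78 ± 0.24, adjusted p = 4.05e-05), but it was the only called gene of 3 tested in the microglia and macrophage list, it reached the limit in tdTomato alone, and Ptprc, Aif1 and Itgam were below 0. Col3a1, a fibrillar collagen of fibroblasts, was 5.91, 6.33 and 6.2 against 2.88, 3.04 and 2.93 (3.20 ± 0.17, adjusted p = 1.2e-05), the only called gene of 8 in its list and above the limit in tdTomato alone, while Col1a1, with means of 4.44 and 4.72, and Acta2, with 6.43 and 6.97, did not pass, and Pdgfrb and Col1a2 were below 0. These counts rest on single libraries: 3 of the 8 were lower without tdTomato replicate 1, in which Acta2 was 7.57 against 6.04 and 5.68 in the other tdTomato libraries, and 2 were higher without EYFP replicate 2. In the Schwann cell and neural crest list 5 of 8 (62.5%, beside 17.9% over all genes) were higher and 2 lower. The higher genes were Cdh19 (1.27), Ngfr, the low-affinity neurotrophin receptor (1.22), Pou3f1 (1.12), Snai2 (0.85, above the limit in tdTomato alone) and Pmp22 (0.78). The lower genes were Egr2, a factor of myelinating Schwann cells that is also an immediate-early gene, with means of 10.55 and 11.72 (-1.17), and Prx (-0.34), and 1 of these 2 was called when any library but EYFP replicate 3 was left out. The defining markers Sox10 and Foxd3 did not reach the limit in either line. Of the endothelial list 2 of 5 were higher, Flt1 (1.27) and Egfl7 (0.80), and Vwf was lower (-0.88), a call lost without tdTomato replicate 2 or 3 or EYFP replicate 1 or 2, with Cdh5 and Tie1 below 0. Of dendritic cell genes, Xcr1 had means of 1.80 and 1.76, and Zbtb46, which both lines expressed (8.16 and 8.29), did not pass. The summed linear values were 763 to 852 in tdTomato and 685 to 787 in EYFP for the microglia list, 642 to 1045 and 772 to 892 for the fibroblast list, and 5722 to 6236 and 5213 to 6261 for the Schwann cell list, which overlapped. They did not overlap for the endothelial list, 116 to 139 and 94.9 to 109, or for the dendritic cell list, 332 to 336 and 351 to 372. The part of such cells in the differences was not tested.

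At the locus that carries the reporters, Gt(ROSA)26Sor was 7.28, 7.54 and 7.14 in tdTomato and 5.63, 5.37 and 5.65 in EYFP (1.77 ± 0.14, adjusted p = 8.75e-05), and its neighbor Setd5 differed by -0.23. The lines carry different insertions there. Across the chromosomes the median difference per autosome lay between -0.03 (chromosome 14) and 0.03 (chromosome 17), while the share of genes called ran from 27.8% on chromosome 19 to 43.0% on chromosome 1, with 40.2% on chromosome 18. More genes were lower than higher on chromosome 14 (21.9% and 16.4%) and on chromosome 3 (17.0% and 15.5%). The 3 called genes with the largest differences were Smoc2, Clic5 and Efna5 on chromosome 17 and Ndrg2, the endothelin receptor Ednrb (-1.51) and Egr3 on chromosome 14.

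The same contrast was made in astrocytes derived from the lines, libraries that the NSC comparison did not use. There 768 of 14054 autosomal genes (5.46%) were higher in tdTomato and 773 (5.5%) were lower. Of the NSC genes higher by at least 1, 180 could be tested in astrocytes, 99 were higher there too and 4 were lower; of those lower by at least 1, 151 could be tested, 69 were lower and 1 was higher. Hoxc11 differed by 5.39 ± 0.22 in astrocytes (adjusted p = 2.13e-06), Hoxc13 by 5.16, Hoxc12 by 4.84, Zic1 by 2.81, Pcdhga8 by -4.33 and Mamdc2 by -2.87. For these 6 genes the difference between fates did not pass (adjusted p = 0.307, 0.579, 0.366, 0.184, 0.35 and 0.0829, limma interaction of line and fate). Some other leading genes differed less in astrocytes, such as Celf4 with a difference of 0.59 there and Smoc2 with 0.41, neither passing there. Their interaction terms passed (adjusted p = 0.000113 and 1.33e-05, limma). Pcdhga10 and Pcdhga5 differed more in astrocytes, by 3.39 and -2.74, and their interaction terms passed as well (adjusted p = 0.00188 and 0.0459, limma). For lists the calls are given side by side. S phase genes had 31 higher in NSCs and none called in astrocytes, of 42, and Notch genes had 14 lower in NSCs and 4 of 15 in astrocytes; the difference between fates was not tested for lists, and calls over all genes were also fewer in astrocytes.

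**Figure D5:**
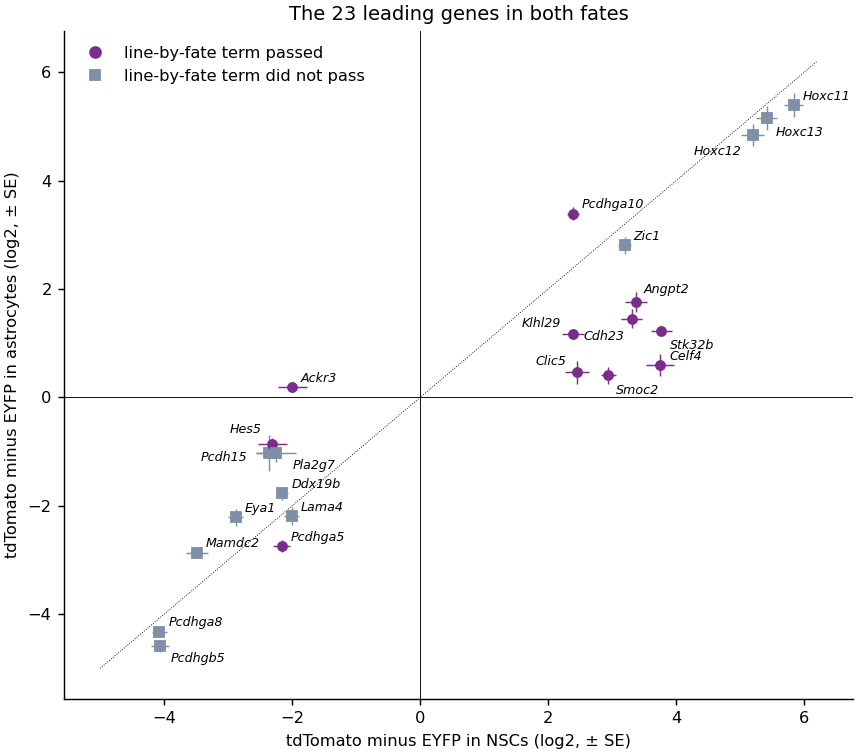
Difference between the lines, tdTomato minus EYFP (log2 ± SE), of the 23 leading genes in NSCs (x axis) and in astrocytes of the same lines (y axis), with the dotted line marking equal differences. Purple circles are the 11 genes whose line-by-fate term passed, such as Celf4 and Ackr3, and gray squares are those whose term did not, such as the HoxC genes; Stk32b was below the limit for testing in astrocytes.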

How the data were processed

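Gene expression was measured by bulk RNA sequencing of poly(A) RNA. The authors aligned the reads with STAR and estimated counts with RSEM on Ensembl release 89 of GRCm38, then normalized them with DESeq2 (version 1.18.1 in the submitters' processing notes), and deposited log2 values for each library. Their transform is not named in the sources used here. The numbers look like a regularized log, which scales for library size and draws weak genes toward their mean. Since counts cannot be recovered, depth per gene is not known and counting errors cannot be stated; the labels state a minimum of 25 M reads per library. Here genes were placed by GENCODE M21 (GRCm38) and the lines were compared by limma 3.58.1 under R 4.3.3, letting the variance follow the mean level, 3 libraries against 3, two-sided, with Benjamini-Hochberg adjustment over all 14304 genes tested on any chromosome. Counts are of autosomal genes. The study's count-based test could not be used on log2 values. With 3 against 3 an exact permutation test cannot go below p = 0.1. The fit was tested on simulated data. The lines' other fate was compared in the same way, and the interaction was fitted over the 12 libraries of both lines.

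Leading genes are the 12 protein-coding genes with the largest difference in each direction that passed the test, did not overlap between lines and had a mean of at least 100 on the linear scale in the higher line. Named besides were up to 5 called members per list with the largest difference, all Hox genes, defining markers, and up to 3 genes of the autosomes with the highest and lowest median; further members were named after their values were seen. Some genes that the rule or the lists include are not reported here. Members and lists were chosen with earlier results of these data known, so that they support nothing on their own. Alternatives were other scalings, filters, pseudocounts, variance models, sample sets, the replicate number as a block, and leaving out each library with the genes tested kept. Promoters are from RefSeq (GRCm38.p6), and motifs were sought on both strands; the CArG box is CC, then 6 bases of A or T, then GG.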

Additional observations from a re-analysis of the deposited data

Results flagged for a closer look

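For 11 of the 23 leading genes the difference between the lines was not the same in astrocytes as in NSCs, by a limma test of the interaction of line and fate. Each value here is the astrocyte difference minus the NSC difference, both tdTomato minus EYFP, on the log2 scale.

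Among genes higher in tdTomato NSCs the value was -2.55 for Stk32b, -3.16 for Celf4, -1.61 for Angpt2, -1.85 for Cdh23, -2.54 for Smoc2, -1.99 for Clic5 and -1.23 for Klhl29. The lines thus lay closer together in astrocytes, but at different levels. In tdTomato and EYFP astrocytes the means were 3.36 and 2.14 for Stk32b, 4.24 and 3.65 for Celf4, and 8.86 and 7.69 for Klhl29. Stk32b was below the limit for testing there. For Pcdhga10 the value was 1.01, a wider gap in astrocytes. Among genes lower in tdTomato NSCs it was 1.44 for Hes5 and 2.19 for Ackr3, a smaller gap in astrocytes, and -0.58 for Pcdhga5, a wider one. Ackr3 was the only one of the 11 with differences of opposite sign in the 2 fates, -2.0 in NSCs and 0.19 in astrocytes, where it did not pass (adjusted p = 0.177, limma). Reads of the 2 protocadherins are shared with other genes of their cluster.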

How the results depend on the processing

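Of the autosomal counts, 4557 in all, 2457 higher and 2100 lower, most alternatives gave values within 1.5 times. With no filter on low values they were 2841, 1482 and 1359, with fewer calls although more genes were tested. Leaving out 1 library gave 2671 to 5030, 1363 to 2724 and 1275 to 2306. Without replicate 1 of both lines, an alternative chosen after seeing the data, they were 2741, 1462 and 1279. The count of 401 genes with a difference of at least 1 was 171 under a filter of 100 on the linear scale and 250 with a pseudocount of 10, which narrows differences by construction, and 365 to 471 with 1 library left out. In astrocytes the count of 1541 was 918 with no filter and 931 to 1512 with 1 library left out. The median of chromosome 17, 0.0348, was 0.0204 under quantile normalization, 0.00863 with no filter and 0.0167 to 0.0356 with 1 library left out. For chromosome 14, -0.0275, the values were -0.0367 under median centring, -0.0374 under quantile normalization, 0.00404 with no filter, where the sign turned, -0.0208 under a filter of 100, and -0.0347 to -0.0228 with 1 library left out. Except where stated, the cause was not tested.

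Blocking on the replicate number, the NSC comparison called 5023 genes and the astrocyte comparison 2887. Same-numbered libraries of the lines deviated together with correlations of 0.154, 0.0107 and 0.153. For tdTomato replicates 1 and 3 the same number was the best match, while tdTomato replicate 2 correlated best with EYFP replicate 3 (0.0449). Whether the numbers are pairs cannot be decided from these values, and the main comparison used no block. Among gene lists, the 8 higher G2/M genes became 15 under the block and 3 without a trend in limma, the 7 cholesterol genes 1 without a trend and 0 with no filter, the 18 lower astrocyte genes 10 with no filter, and the 15 higher axon guidance genes 9 under a filter of 100. Depth could not be set beside these values, because the deposited values hold no counts.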

Other observations

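Runs of neighboring genes were also read off, as a description with no test. Over windows of 15 tested genes in a row, the highest median difference, 0.38, was on chromosome 11 from Nacad to Sec61g, and the next, 0.37, on chromosome 1 from Rd3 to Cr1l. The lowest, -0.35, was on chromosome 2 from Gm4724 to Gm14305, a run of zinc finger and predicted genes that are close copies of each other, so that reads could be split between them.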
